A study of Mus musculus with 8 samples.

Results

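The CCN family comprises secreted matricellular proteins, which act in the extracellular matrix as signals rather than as scaffold. The genes examined were Ccn1 (older symbol Cyr61), Ccn2 (Ctgf), Ccn3 (Nov), Ccn4 (Wisp1) and Ccn5 (Wisp2), taken by name, which were 5 of the 55385 genes in each count file. All 5 were found, and all 5 passed the filter on low counts of at least 5 read pairs in 3 or more libraries. Ccn6 (Wisp3), the sixth gene of the family, is given beside them only for comparison.

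The proteins bind integrins, heparan sulfate proteoglycans and growth factors, and share a build of modules in which Ccn5 lacks the C-terminal one. Ccn1 and Ccn2 are immediate responses to stretch and to serum, and are standard readouts of Yap and Taz, the coactivators that the Hippo kinases restrain and that bind DNA through Tead factors. CCN4 and CCN5 were first described as genes induced by Wnt, and mice without Ccn2 are born with small lungs.

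Lungs came from C57BL/6 mouse fetuses at E18.5. In the TO (tracheal occlusion) group the trachea had been tied off at E16.5, which keeps secreted liquid in the airways. The ligature also took in a carotid artery and a jugular vein. The Control group is labelled only as control. In this model the paper also gave progesterone against abortion, and does not say whether Control fetuses were exposed to it. No transgene is named for either group, and the labels do not say which fetuses were littermates. There were 4 Control and 4 TO libraries of whole lung, numbered as in the labels. Controls 1, 2 and 4 and TO 2, 3 and 4 were the lungs in the published display, are called the 6 displayed lungs, and were compared first. Because whole lung was sequenced, a change in the number of cells of a type and a change in RNA per cell cannot be told apart. The p-values set the difference between TO and Control against the spread between these lungs.

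Read pairs counted on genes ranged from 22822261 to 35002061 in 7 libraries, while TO 1 had 270078. In TO 1 a single read pair was worth 3.43 CPM (the normalized count of edgeR after TMM scaling, the unit of all levels below), so its values are given but carry little weight. Each of the 8 markers of alveolar type 1 cells and 7 markers of alveolar type 2 cells had reads in every library, as the lung label requires. Markers of heart muscle were also present, and their summed level was 575 to 5570 CPM in Control and 2590 to 7540 CPM in TO lungs.

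Ccn1 is the only one of the 5 genes with a window in the promoter set used here. The promoters of the other members, Ccn2 among them, were therefore not searched. The 250 bases before the RefSeq start site lie at chr3:145649986-145650235 on the minus strand of GRCm38.p6 and read, 5′ to 3′, with the Tead motif CATTCC in capitals:
Ccn1: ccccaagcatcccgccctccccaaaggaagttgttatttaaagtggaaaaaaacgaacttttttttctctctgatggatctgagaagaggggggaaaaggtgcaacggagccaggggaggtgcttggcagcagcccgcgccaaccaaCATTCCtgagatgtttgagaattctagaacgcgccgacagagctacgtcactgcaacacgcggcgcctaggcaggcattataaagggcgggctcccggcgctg
The motif spans -103 to -98 from the start site. On either strand, 14.7% of 32851 RefSeq promoter windows (250 bases before to 50 after the start) held CATTCC. The AP-1 motif TGANTCA was in 7.81% of the windows and the CArG box of SRF in 1.63%, and the window of Ccn1 held neither. A match describes letters, not binding.

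Ccn1, a ligand of integrins that promotes adhesion and the growth of vessels, did not pass the test between TO and Control, and its highest level was in Control 3. It is ENSMUSG00000028195.4, on chromosome 3 from 145646976 to 145649981 (GRCm38, minus strand). Its level was 55.7, 67.1, 156 and 64.2 CPM in Controls 1 to 4 and 48.1, 66.6, 85.6 and 52.2 CPM in TO 1 to 4. Control 3 stood well above every other lung, TO 3 came next, and the groups overlapped.

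In the 6 displayed lungs, Ccn1 had a mean of 68.1 ± 16.8 CPM in TO (SD, n = 3) and 62.4 ± 5.92 CPM in Control (SD, n = 3). The log2 fold change of TO against Control was 0.12 (SE 0.17; adjusted p = 0.96, quasi-likelihood test of edgeR), with a 95% interval of -0.27 to 0.51. Adding Control 3 turned the sign, to -0.33 in 7 lungs (SE 0.35; interval -1.11 to 0.44), and it was -0.39 with TO 1 as well (interval -1.09 to 0.30). None of these differed beyond the spread between lungs. The sign also turned in the displayed lungs without TO 3, to -0.058.

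Ccn2, which encodes connective tissue growth factor and is a classic Yap/Taz target, was higher in TO 2 and TO 3 than in 3 of the Control lungs, but not in TO 4. It is ENSMUSG00000019997.11, on chromosome 10 from 24595442 to 24598683 on the plus strand. Its level was 51.2, 63.7, 121 and 65.4 CPM in Controls 1 to 4 and 30.9, 89.0, 86.2 and 59.1 CPM in TO 1 to 4. Control 3 was again the highest lung, and TO 4 lay within the range of the other Controls.

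In the 6 lungs, Ccn2 had a mean of 78.1 ± 16.5 CPM in TO and 60.1 ± 7.76 CPM in Control (SD, n = 3 each). The log2 fold change was 0.37 (SE 0.17; interval -0.01 to 0.76), with an unadjusted p of 0.0559 and an adjusted p of 0.907 in edgeR. It was 0.05 in 7 lungs (interval -0.57 to 0.68) and -0.08 in all 8 (interval -0.73 to 0.57). The exact permutation test (two-sided) gave p = 0.3 in the 6 lungs, where 0.1 is the smallest it can give for 3 against 3. Leaving out TO 4 raised the log2 fold change to 0.55 (adjusted p = 0.185, edgeR), the largest value in any setting tried.

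The count of Ccn2 was incomplete in every library. Gm15270, a processed transcript on the other strand, runs from 24549441 to 24597108 and so covers part of Ccn2, and pairs on such an overlap are left out of counts made without regard to strand. The strand columns of the files keep them, since they count each orientation apart. By those columns, the pairs on Ccn2 numbered 1678 in Control 1 against 1169 in the count without strand, and 3065 in TO 4 against 2078. The share left out was 29.8% to 38.2% in the 7 deep libraries, with Control 4 the highest at 38.2% and the other 6 at 32.2% or less. Gm15270 itself had 7 to 33 pairs outside the overlap in these libraries. As the libraries kept no strand, whether a pair on the overlap came from Ccn2 or from Gm15270 cannot be told apart.

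With the overlap pairs included, Ccn2 was at 73.5, 90.7, 177 and 106 CPM in Controls 1 to 4 and at 61.8, 128, 125 and 87.1 CPM in TO 1 to 4. TO 4 lay below Controls 2 and 4, as it did in the count without strand. In the 7 deep libraries the levels were 1.42 to 1.62 times those counted without strand. The log2 fold change in the 6 lungs was 0.33 (SE 0.18; adjusted p = 0.881, edgeR), close to the 0.37 above, and it was 0.02 in 7 lungs and -0.092 in 8. The other 4 genes lost no pair this way. Ccn6 overlaps Tube1 and lost up to 8 pairs per library.

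Ccn3, which restrains proliferation and binds Notch1, was lowest in Controls 1 and 2. It is ENSMUSG00000037362.8, on chromosome 15 from 54745702 to 54754039. Its level was 11.2, 9.33, 19.6 and 19.2 CPM in Controls 1 to 4 and 13.7, 15.5, 21.2 and 21 CPM in TO 1 to 4. Controls 3 and 4 were as high as the TO lungs, so the groups overlapped. The mean was 19.2 ± 3.23 CPM in TO and 13.2 ± 5.25 CPM in Control in the 6 lungs (SD, n = 3 each). The log2 fold change was 0.53 (SE 0.28; interval -0.10 to 1.16; adjusted p = 0.907, edgeR). It was 0.37 in 7 lungs and 0.33 in all 8.

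Ccn4, induced by Wnt signaling and made by mesenchymal cells, showed the same split among Control lungs. It is ENSMUSG00000005124.10, on chromosome 15 from 66891320 to 66923201. Its level was 24.2, 18.7, 37.1 and 40.4 CPM in Controls 1 to 4 and 58.4, 44.5, 37.9 and 41.1 CPM in TO 1 to 4. All 4 TO lungs lay above the Control mean, but Control 4 was higher than TO 3. The mean was 41.2 ± 3.34 CPM in TO and 27.7 ± 11.3 CPM in Control in the 6 lungs (SD, n = 3 each). The log2 fold change was 0.57 (SE 0.26; interval -0.01 to 1.15), with an unadjusted p of 0.0545 and an adjusted p of 0.907 in edgeR. It was 0.45 in 7 lungs and 0.53 in all 8, where the exact permutation test (two-sided) gave p = 0.0571 and could have given 0.0286. Without Control 4 the log2 fold change was 0.94 (adjusted p = 0.17, edgeR), and without Control 2 it was 0.35.

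Ccn5, which lacks the C-terminal module and is known as a brake on smooth muscle growth, was barely detected. It is ENSMUSG00000027656.7, on chromosome 2 from 163820861 to 163833146. It had 7, 17, 17 and 35 read pairs in Controls 1 to 4 and 0, 39, 42 and 5 in TO 1 to 4. These correspond to 0.306, 0.553, 0.571 and 1.42 CPM in Control and 0, 1.13, 1.74 and 0.142 CPM in TO. TO 4 had the lowest level of the 7 deep libraries and TO 3 the highest. The log2 fold change was 0.38 (SE 0.91) with an interval of -1.67 to 2.42, so a difference of several fold in either direction could not be resolved at this depth. Ccn6 was at a like level, 0.336 to 1.18 CPM in Control and 0.347 to 0.868 CPM in TO 2 to 4.

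**Figure D1:**
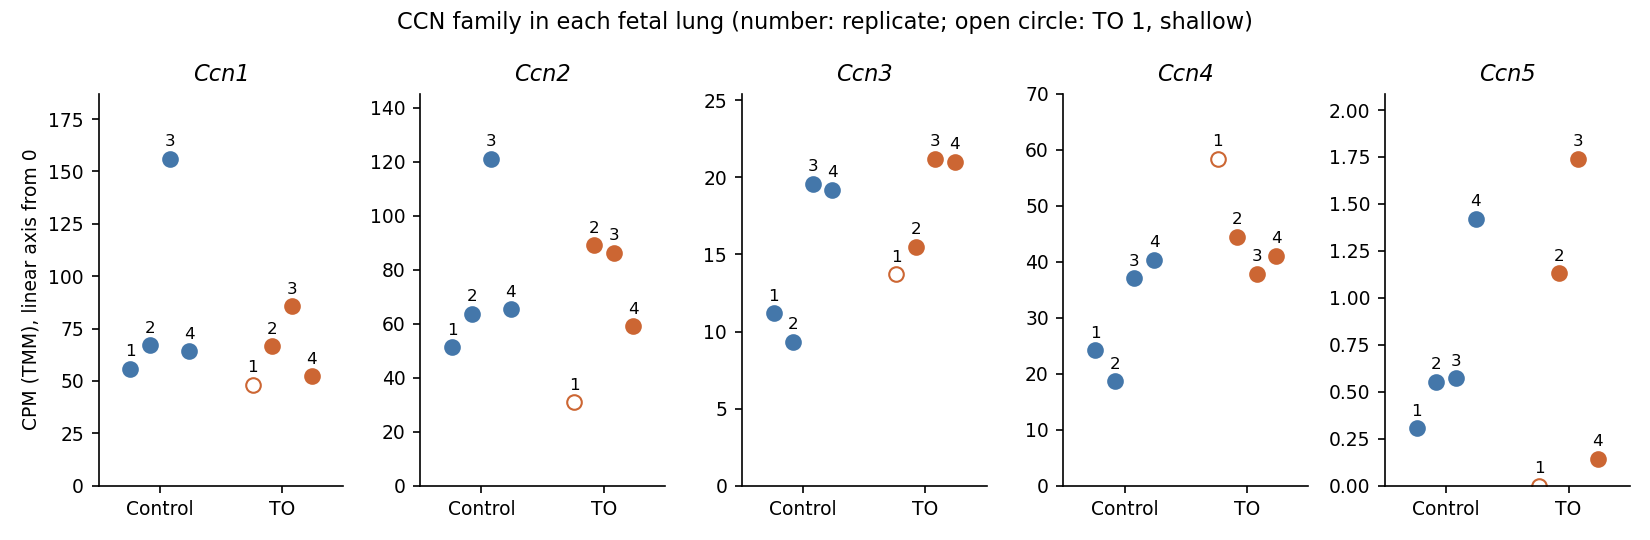
Level of each CCN gene in every lung, in CPM on linear axes that start at 0 and differ between panels, with Control lungs on the left and TO lungs on the right of each panel and the replicate number above each point (open circle, TO 1 with 270078 read pairs). Control 3 is highest for Ccn1 (156 CPM) and Ccn2 (121 CPM), and Controls 1 and 2 are lowest for Ccn3 and Ccn4.

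None of the 5 genes was called at an adjusted p under 0.1 by edgeR in 6, 7 or 8 lungs. In each of the 3 fits edgeR called 0% of all genes (0 of 21859 in the 6 lungs). DESeq2, the tool of the authors, called 0.239% of genes in the 6 lungs (44 of the 18421 to which it gave an adjusted p) and none of the 5. At an unadjusted p under 0.05 the 3 edgeR fits had 5.14% of genes in the 6 lungs, 2% in 7 and 2.35% in 8. Again none of the 5 was among them in these fits, which had no block. DESeq2 gave an unadjusted p under 0.05 to 2 of the 5 in the 6 lungs, 0.0237 for Ccn4 and 0.0402 for Ccn2 (adjusted p = 0.623 and 0.7), a threshold that 6.13% of all genes passed in DESeq2.

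In no set of lungs did the TO and Control values of a CCN gene fall apart without overlap, which 10.9% of genes did in the 6 lungs, 3.94% in 7 and 2% in 8. All 5 log2 fold changes were above 0 in the 6 lungs, as were 49.3% of all genes tested. The members' median was 0.38 beside -0.004 over all genes, and it was 0.37 in 7 lungs and 0.33 in 8, where 4 and 3 of the 5 were above 0. Ccn3 and Ccn4 were above 0 in each of the 26 alternative settings, from 0.32 to 0.91 and from 0.35 to 0.94, while the others changed sign in at least 1.

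**Figure D2:**
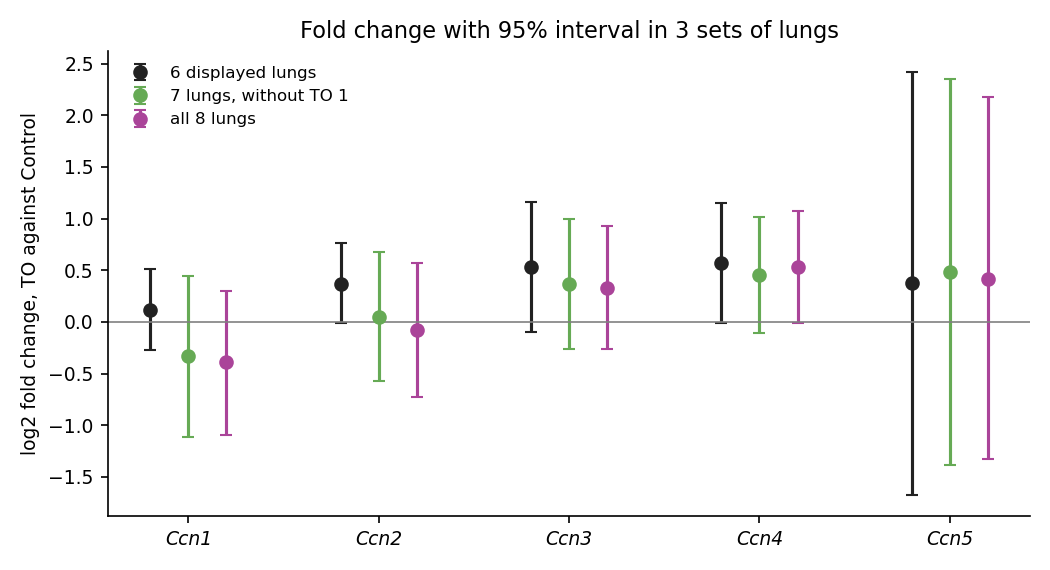
Log2 fold change of TO against Control for each CCN gene, as points with 95% intervals from edgeR, in the 6 displayed lungs, in 7 lungs without TO 1 and in all 8. Every interval includes 0, Ccn1 changes sign once Control 3 is added (0.12 to -0.33), and the interval of Ccn5 spans -1.67 to 2.42 in the 6 lungs.

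Levels of different genes were compared per kilobase of merged exons. Over the 4 Controls, Ccn1 was at 42.5 ± 23.4 CPM per kb, Ccn2 at 26.3 ± 10.9, Ccn4 at 5.40 ± 1.86, Ccn3 at 5.17 ± 1.86 and Ccn5 at 0.370 ± 0.252 (SD, n = 4). In TO 2 to 4 the order was the same, with Ccn1 at 33.7 ± 8.30, Ccn2 at 27.3 ± 5.78, Ccn4 at 7.40 ± 0.599, Ccn3 at 6.69 ± 1.13 and Ccn5 at 0.521 ± 0.418 CPM per kb (SD, n = 3). Ccn3 and Ccn4 did not differ beyond their spread. Ccn1 and Ccn2 each exceeded them in every lung, and Ccn5 was the lowest in every lung.

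Ccn1 was above Ccn2 per kb in all 8 lungs, by 1.06 times in TO 2 to 2.2 times in TO 1 (at most 1.83 times, in Control 3, among the 7 deep libraries). That order did not hold when all pairs on the overlap, whose gene of origin cannot be told apart, were counted for Ccn2. Ccn2 was then at 39.0 ± 15.9 CPM per kb in Control (SD, n = 4), and Ccn1 was the higher of the pair in 4 of 8 lungs only. In the count without strand, Ccn1 held 42.2% to 58% and Ccn2 21.7% to 39.9% of the family's summed level per kb. Ccn4 held 4.99% to 21% and Ccn3 5.12% to 11.9%, both with their lowest share in Control 3. The 21.7% of Ccn2 and the 21% of Ccn4 were those of TO 1, from 9 and 17 read pairs. In the 7 deep libraries Ccn2 held 31.7% to 39.9% and Ccn4 4.99% to 12.1%. The family sum was 133 CPM per kb in Control 3 and 49.9 to 87.6 in the other 7 lungs.

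**Figure D3:**
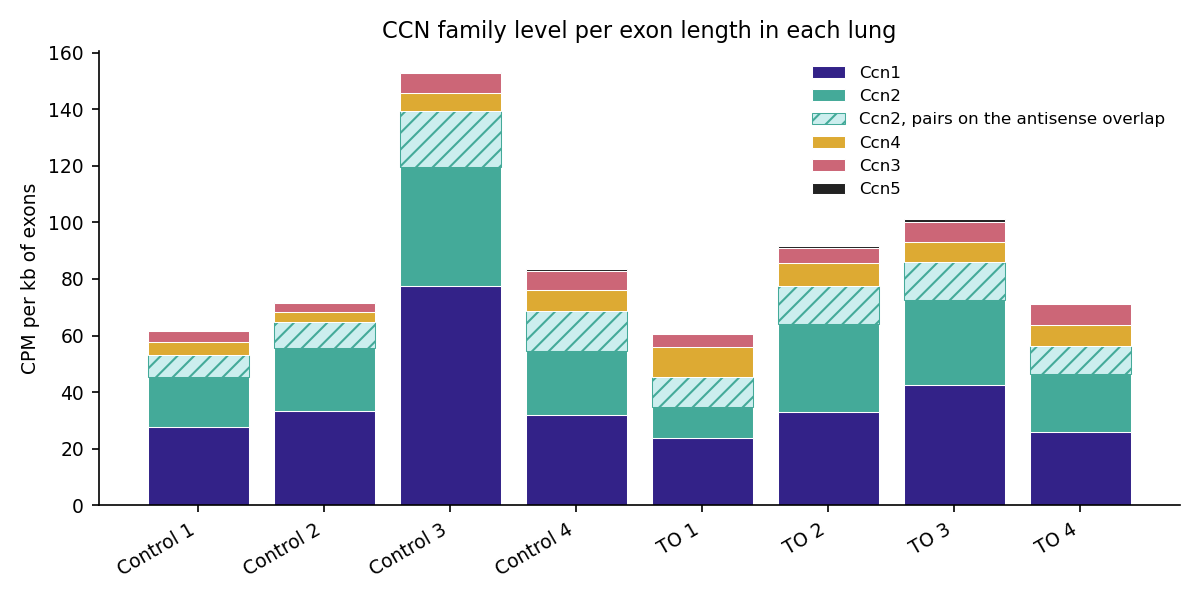
Summed level of the CCN genes in each lung, in CPM per kb of exons on an axis that starts at 0, with 1 stacked bar per lung. Hatching marks pairs on the overlap of Ccn2 with Gm15270, which the count without strand leaves out, and Control 3 has the tallest bar in the counts with or without them.

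The 5 genes varied more between lungs than most genes did. Over the 7 deep libraries the SD of log2 CPM was 0.53 for Ccn1, 0.43 for Ccn2, 0.47 for Ccn3 and for Ccn4, and 1.1 for Ccn5, beside a median of 0.21 over 10769 genes with a mean of at least 10 CPM. Between 88.8% (Ccn2) and 98.8% (Ccn5) of those genes had a smaller SD. For Ccn5 the low count adds to the spread. The highest lung exceeded the lowest by 2.27 times for Ccn3 to 2.99 times for Ccn1, and by 12.2 times for Ccn5.

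The variation took 2 forms. Likeness was measured as the root mean square difference of log2 CPM over the 7 deep libraries, each gene centred on its own mean, and is given as a description without a test. Ccn1 and Ccn2 differed by 0.23 and Ccn3 and Ccn4 by 0.21. The distances across these pairs were 0.43 to 0.6, and Ccn5 was 0.91 to 1.01 from the other 4.

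The gene most like Ccn1 was Lox, the collagen and elastin crosslinking enzyme, at a distance of 0.078 where the median gene was at 0.53. Lox was at 901, 970, 2210 and 875 CPM in Controls 1 to 4 and at 1030, 1290 and 752 CPM in TO 2 to 4. Aldoc, a glycolytic aldolase (0.087), and Sik1, a kinase induced by cAMP (0.123), followed. For Ccn2 the nearest were Vwa5a (0.074), Uap1l1 (0.094) and Ralgapa2 (0.095). All 6 were highest in Control 3, which follows largely from picking them for likeness over the same lungs. With the 6 lungs alone, none of the 3 nearest to Ccn1 and 1 of those nearest to Ccn2 stayed among the nearest.

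The genes most like Ccn3 were Zim1 (0.102), Fry (0.113) and Rnf128 (0.113), and the same 3 were nearest in the 6 lungs alone. For Ccn4 they were Gxylt2 (0.142), Postn (0.151) and Gca (0.153), of which 1 was among the nearest in the 6 lungs alone. Postn encodes periostin, itself a matricellular protein, and was at 392, 278, 624 and 533 CPM in Controls 1 to 4 and at 552, 506 and 625 CPM in TO 2 to 4. All 6 were lower in Controls 1 and 2 than in any other of the 7 lungs, which again follows largely from how they were picked. Nothing came close to Ccn5, whose nearest were Mirg (0.555), Slc6a9 (0.643) and Il33 (0.655), 1 of them also among the nearest in the 6 lungs alone.

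**Figure D4:**
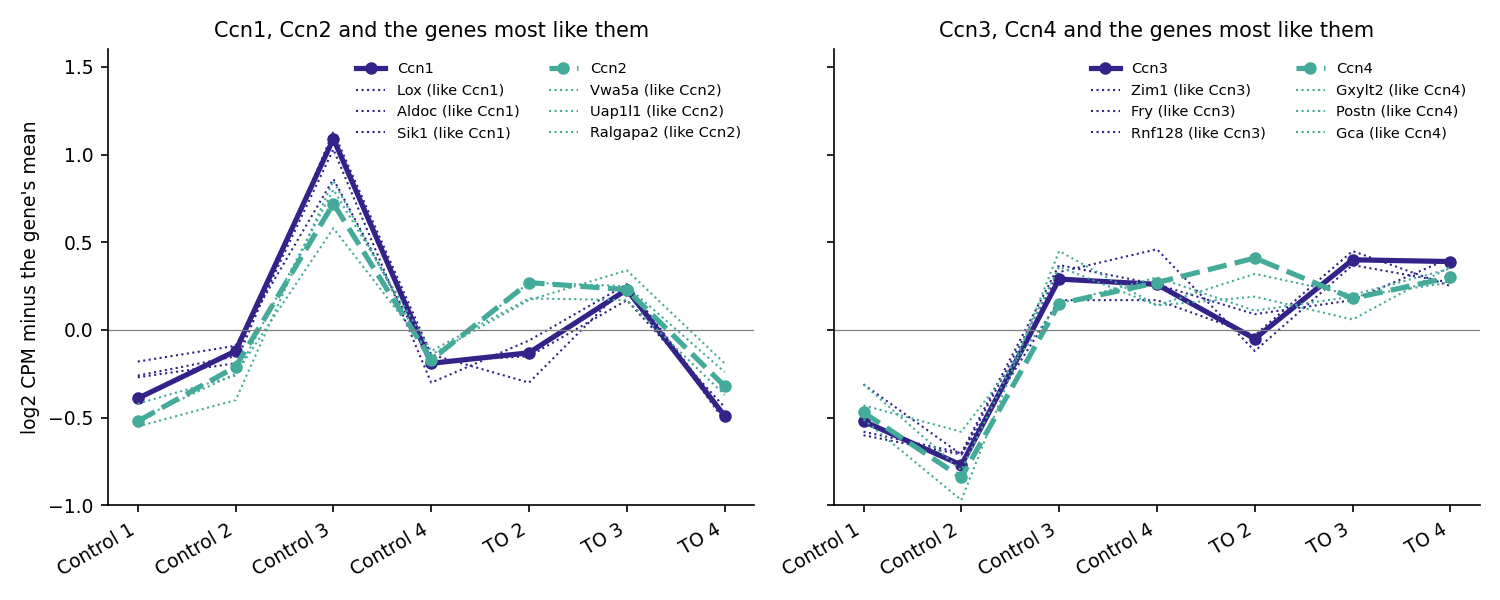
Log2 CPM minus the gene's own mean over the 7 deep libraries, for Ccn1 and Ccn2 (left) and Ccn3 and Ccn4 (right), each with the 3 genes most like it as dotted lines. Lines join lungs that have no order: the left pair peaks in Control 3 (1.09 and 0.72), and the right pair is lowest in Control 2 (-0.77 and -0.84).

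Control 3 held Ccn1 at 2.51 times and Ccn2 at 2.02 times the mean of the other Controls, ratios that 1.55% and 3.26% of the 10769 genes reached. Of these genes, 26.6% were highest in Control 3 among the 7 lungs. The share was 58.8% of other Yap/Taz targets (10 of 17), 57.9% of Hippo pathway genes (11 of 19), 57.1% of TGF-beta response genes (8 of 14) and 50% of SRF, MRTF and immediate early genes (8 of 16). It was 45% of CCN receptors and binding partners (9 of 20), 31.2% of other matricellular genes (5 of 16) and 25% of Wnt/beta-catenin targets (2 of 8). Markers of several cell types were highest in Control 3 at a share above that of all genes. They were 5 of 6 for mesothelium, 5 of 8 for alveolar type 1 cells, 4 of 7 for endothelium and 3 of 6 for erythroid cells. The share was lower for alveolar type 2 cells (0 of 7), fibroblasts (1 of 8), smooth muscle (2 of 8) and cardiomyocytes (2 of 9). It was 0 of 4 for airway cartilage, 0 of 4 for macrophages and granulocytes, 0 of 3 for skeletal muscle and 0 of 1 for basal cells. The summed type 1 cell markers were 4320 CPM in Control 3 and 2060 to 3510 in the other 6 deep lungs. The summed mesothelial markers were 953 CPM in Control 3 and 427 to 736 in those 6. The summed erythroid markers (5080 CPM) and smooth muscle markers (1650 CPM) were highest in Control 3 as well, closely followed by other lungs at 4870 and 1610 CPM. The smooth muscle markers did not move together. Acta2 was highest in Control 3, at 569 CPM, while Myh11 was at 196 CPM there against 331, 236 and 274 CPM in Controls 1, 2 and 4. The part of cell composition in the high Ccn1 and Ccn2 of Control 3 was not tested.

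Controls 1 and 2, where Ccn3 and Ccn4 were lowest, were also the lungs with the least heart muscle RNA. The summed level of 9 cardiomyocyte markers was 822 and 575 CPM there, 5570 and 4380 CPM in Controls 3 and 4, and 2590 to 6220 CPM in TO 2 to 4. Each of the 9 markers was lower in Controls 1 and 2 than in any of the other 5 deep lungs, as were 7.59% of the 10769 genes and 37.5% of other matricellular genes (6 of 16). In the 6 lungs the cardiomyocyte markers had a median log2 fold change of 1.16, and none was called by edgeR. In TO 1, which held the most heart markers (7540 CPM), Ccn4 was at 58.4 CPM from 17 read pairs and Ccn3 at 13.7 CPM from 4. TO 1 stood apart in other tissues too. Its summed skeletal muscle markers were at 1830 CPM, against 14.3 to 94.3 CPM in Control and 63.9 to 135 CPM in TO 2 to 4. Its summed fibroblast markers were at 11500 CPM, against 6170 to 7300 CPM in Control and 6460 to 7790 CPM in TO 2 to 4. In the 6 lungs all 8 skeletal muscle markers had a log2 fold change above 0, with a median of 1.14, and none was called by edgeR. The part of these tissues in the levels of Ccn3 and Ccn4 was not tested.

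No receptor or binding partner of the CCN proteins passed the test. Of 22 listed genes edgeR called 0 in either direction, and their median log2 fold change was 0.04 in the 6 lungs, -0.04 in 7 and -0.09 in 8. Fn1, which encodes fibronectin, had a log2 fold change of 0.00 (SE 0.10), Itgb1, the shared beta chain of many integrins, of 0.03 (SE 0.11), and Igf2r of 0.16 (SE 0.17). The single gene with an unadjusted p under 0.05 was Itgam, a leukocyte integrin, at 1.35 (SE 0.49; adjusted p = 0.907, edgeR). It was named after its value was seen. Its TO lungs had 1.3, 4.17 and 3.47 CPM against 1.01, 1.07 and 1.42 CPM in Controls 1, 2 and 4. Control 3 was at 3.29 CPM, above TO 2, and with it the log2 fold change of Itgam was 0.80. The summed macrophage and granulocyte markers were 311 to 389 CPM in TO 2 to 4, 237 CPM in TO 1 and 168 to 281 CPM in the Controls. Of the 8 markers 6 were tested in the 6 lungs, and all 6 had a log2 fold change above 0. In edgeR 5 had an unadjusted p under 0.05, as had 5.14% of all genes, and 0 were called. DESeq2 called 1, S100a8, with a log2 fold change of 1.82 (SE 0.46, adjusted p = 0.907, edgeR). S100a8 was at 11, 26.1 and 41.6 CPM in TO 2 to 4 and at 9.32, 8.55, 5.3 and 4.45 CPM in Controls 1 to 4. Lyz2, the most abundant of the markers, overlapped between the groups. It was at 303, 240 and 128 CPM in TO 2 to 4 and at 130, 168, 200 and 106 CPM in Controls 1 to 4.

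Nor did a gene of the machinery upstream of Ccn1 and Ccn2 pass it. Of 19 Hippo pathway, Yap, Taz and Tead genes edgeR called 0, with a median of -0.01. Wwtr1, which encodes Taz, had a log2 fold change of 0.06 (SE 0.13), Tead1 of -0.09 (SE 0.13) and Amotl1, an inhibitor that holds Yap in the cytoplasm, of 0.11 (SE 0.15). Transcript levels do not report where the Yap protein lies.

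Among 20 Yap/Taz targets other than Ccn1 and Ccn2, edgeR called 0 and the median log2 fold change was 0.07, with 13 above 0. DESeq2 called 1, Igfbp3, which encodes a carrier of insulin-like growth factors. Igfbp3 was at 28.9, 27.9, 59.5 and 40.4 CPM in Controls 1 to 4 and at 47.2, 121 and 49 CPM in TO 2 to 4, so that Control 3 exceeded TO 2 and TO 4. Its log2 fold change was 1.15 (SE 0.35; adjusted p = 0.907, edgeR). At an unadjusted p under 0.05 edgeR had 1 target higher in TO, Igfbp3, and 1 lower, Tgfb2. Tgfb2 had a log2 fold change of -0.53 (SE 0.15, adjusted p = 0.907, edgeR). It was at 195, 141, 136 and 164 CPM in Controls 1 to 4 and at 107, 105 and 133 CPM in TO 2 to 4. Without overlap of the groups, 1 target was higher and 3 were lower in the 6 lungs, and 0 and 3 in 7. The shares of all genes without overlap were 10.9% and 3.94%. Ankrd1, a target that heart muscle also makes in quantity, was at 17.4 and 9.5 CPM in Controls 1 and 2 and at 132 to 344 CPM in the other 5 deep lungs. Myof and Arhgef17, the other abundant targets, had log2 fold changes of -0.16 (SE 0.11) and -0.13 (SE 0.09).

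Of the 22 SRF, MRTF and immediate early genes 19 were tested, edgeR called 0 and the median was 0.23, with 3 at an unadjusted p under 0.05, all higher in TO. In 7 lungs the median was -0.01. DESeq2 called Fos, a subunit of AP-1, which was at 4.68, 6.5, 24.4 and 5.9 CPM in Controls 1 to 4 and at 11.9, 18.3 and 9.52 CPM in TO 2 to 4. Its log2 fold change was 1.21 (SE 0.28; adjusted p = 0.907, edgeR), and Control 3, not among these 6 lungs, was above every TO lung. The abundant Fosl2, Klf6 and Jun had log2 fold changes of 0.34 (SE 0.16), 0.25 (SE 0.11) and 0.10 (SE 0.16). Fosl2 and Klf6 also had their highest level in Control 3, at 206 and 205 CPM.

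The 15 TGF-beta response genes had a median of 0.00 with 0 called by edgeR, and Col1a1 and Col3a1, the abundant fibrillar collagens, had log2 fold changes of -0.06 (SE 0.14) and 0.14 (SE 0.13). Of 14 Wnt/beta-catenin targets 13 were tested, 0 were called and the median was 0.06. Axin2, the feedback inhibitor often read as a Wnt reporter, had a log2 fold change of 0.13 (SE 0.15), and Nkd1 and Ccnd1 had 0.15 (SE 0.18) and -0.06 (SE 0.17). The median of 20 other matricellular genes was 0.18 with 0 called, and Postn was at 0.48 (SE 0.22), beside -0.09 for both Sparc (SE 0.12) and Sparcl1 (SE 0.11).

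Lungs with the same replicate number can be set side by side, although the labels do not say that a number marks a shared litter. Ccn1 was lower in the TO lung of all 4 such pairs, at 0.863, 0.992, 0.548 and 0.812 times the Control lung. Ccn3 and Ccn4 were higher in all 4, at 1.08 to 1.66 times for Ccn3. For Ccn4 the ratio was 2.42 and 2.39 in pairs 1 and 2 and 1.02 in pairs 3 and 4. Ccn2 was higher in TO 2 only (1.4 times) and lower in the other 3. The ratios of pair 1 rest on TO 1, which had 14, 9, 4 and 17 read pairs on Ccn1 to Ccn4. Each read pair was worth 3.43 CPM there, so the direction in pair 1 carries little weight. The share of all genes with the same direction in all 4 pairs was not computed.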

How the data were processed

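The authors made NexteraXT libraries of whole-lung RNA (4 Control, 4 TO), sequenced them as read pairs and aligned these to GRCm38 (mm10 in the submitters' processing notes) with STAR. The version and annotation are not given in the sources used here. Per gene, the authors deposited unnormalized counts, 1 regardless of strand and 1 per orientation. Either orientation took 49.9% to 50.1% of pairs, so the count regardless of strand was used.

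Symbols and coordinates came from GENCODE M21, to which 55144 of 55385 IDs matched without version. Genes reaching 5 reads in 3 libraries were compared by the quasi-likelihood test of edgeR 4.0.16 after TMM scaling, without a block (R 4.3.3), with p-values adjusted (Benjamini-Hochberg) across every gene tested and called under 0.1. DESeq2 1.42.0 and limma 3.58.1 were alternatives. Scripts were tested on simulated data. TMM factors for CPM were those of all 8 libraries, with a prior count of 2 for log2 CPM. Without molecular identifiers, pairs are not independent molecules. Figures were drawn with matplotlib 3.10.9.

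The members and gene lists were chosen with earlier results of these data known, and so support nothing independently. Beside the members, the genes named are the 3 most abundant of each pathway list, any that edgeR or DESeq2 called in the 6 lungs, and the 3 most like each member. Other genes were named after their values were seen. Some genes stand in several lists, such as Fn1. RefSeq promoter windows were matched by symbol, and among the members only Ccn1 had a window, which is shown. Protein sequences were not analysed here.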

Additional observations from a re-analysis of the deposited data

Results flagged for a closer look

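The level of Ccn1 in Control 3 stood apart from the other Control lungs. It was 156 CPM beside 55.7, 67.1 and 64.2 CPM, and the gap to the nearest Control was 0.887 of the whole range of the group, above Dixon's 95% critical value for 4 samples. Chance alone flags about 1 in 20 groups, and 10 groups were examined. The same ratio was 0.797 for Ccn2, also in Control 3, and did not pass. Control 3 is not among the 6 displayed lungs. With it the log2 fold change of Ccn1 was -0.33 in place of 0.12.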

How the results depend on the processing

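Ccn3 and Ccn4 kept their direction in all 26 alternative settings, and no member was called in any (smallest adjusted p = 0.17, edgeR, for Ccn4 without Control 4). Ccn1 fell below 0 with 7 lungs (-0.33; -0.33 with both strand columns summed; -0.34 in DESeq2), with all 8 (-0.39, -0.39 and -0.40) and with a block by specimen code (-0.34, SE 0.15, adjusted p = 0.955, edgeR, beside an SE of 0.32 without it). Ccn2 did so with all 8 lungs (-0.079; -0.092 with strand columns summed; -0.099 in DESeq2) and with the code block (-0.067). Ccn5 was -0.082 in limma-voom. The DESeq2 fits of 7 and 8 lungs and the summed strand columns were chosen after seeing the data. The cause of these changes was not tested, apart from the lungs included.

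Pairing by replicate number was not established. In their deviations from the group means, same-numbered lungs correlated at 0.05, 0.13, 0.16 and 0.07 in all 8 libraries, and at 0.13, 0.20 and 0.11 for numbers 2, 3 and 4 in the 7 deep ones. TO 4 correlated best with Control 1 (0.17 in 7 libraries). Controls 1 and 4 and TO 1 and 4 share digits of their specimen code, as do the lungs numbered 2 and those numbered 3, and pairs with different codes were at 0.01 or below. What the code marks is not given in the sources used here. With a replicate block Ccn1 was -0.15 in 6 lungs, -0.39 in 7 and -0.37 in 8 (adjusted p = 1 in each, edgeR), Ccn2 was -0.052 in 7 and -0.13 in 8, and Ccn5 was -0.98 in 6 and -0.001 in 8. Ccn4 was 0.64 in 6 (SE 0.22, unadjusted p = 0.00698, adjusted p = 0.357, edgeR), 0.43 in 7 and 0.56 in 8 (unadjusted p = 0.0297, edgeR). The unadjusted p of Ccn1 was 0.0434 in 7 and 0.0387 in 8 (edgeR). With the code block it was 0.0402 for Ccn1 and 0.0241 for Ccn4 (edgeR). An unadjusted p under 0.05 was reached by 1293, 718 and 993 genes with the replicate block in 6, 7 and 8 lungs, and by 1152 with the code block. In the 6 lungs only numbers 2 and 4 have both groups.

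Leaving out each of the 6 lungs gave -0.058 to 0.29 for Ccn1 and -0.25 to 1.2 for Ccn5, in both cases below 0 without TO 3. The count of all genes called, 0 in edgeR (1123 at an unadjusted p under 0.05), was 44 in DESeq2, 40 without a filter, 219, 5 and 3 with the replicate block in 6, 7 and 8 lungs, 7 in DESeq2 with 7 and with 8 lungs, and 0 to 144 with a lung left out (144 without TO 4, 52 without Control 4). No scaling moved the median of all genes by over 0.1. Low counts limit Ccn5, and 270078 read pairs limit TO 1.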
